A study of Mus musculus with 16 samples.

Results

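The genes that encode the oxidative phosphorylation machinery were followed in left lungs of adult Balb/c mice, an inbred strain, that had been exposed before birth to sidestream tobacco smoke or to filtered air. The members were taken by gene symbol from the array's annotation: every gene whose symbol begins with Nduf followed by a, b, c, s or v, with Uqcr, with Cox and a number from 4 to 8, or with Atp5, together with Sdha, Sdhb, Sdhc, Sdhd, Cyc1 and Cycs. This gave 92 of the 18193 genes that had a probe set with a single symbol. Each gene was represented by the probe set, a group of short probes for one transcript, with the highest mean over all 16 arrays. The symbol rule and the mean use no measured difference, but the members were chosen with earlier results of these data known.

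The study had 4 groups of 4 lungs, each lung hybridized to 1 Affymetrix mouse expression array: females after air in utero (AF), females after smoke in utero (EF), males after air in utero (AM) and males after smoke in utero (EM). Smoke, used as a stand-in for second-hand smoke, carried 10 mg of particles per cubic metre, and exposures to smoke or air ran 5 hours a day on 7 days a week. All 16 mice, controls included, were later made allergic to ovalbumin (OVA), with injections at 19 and 21 weeks of age and OVA aerosol in weeks 22 and 23, and the lungs were taken at 23 weeks. No group without OVA is part of the design, so every difference is one between allergen-challenged adults. The labels call the lungs biological replicates but do not say which litters they came from, so p-values measure the spread between these lungs and may not carry that between mothers.

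Values are log2 intensities as deposited. Array medians lay between 7.00 and 7.04 and arrays of one sex correlated with r between 0.990 and 0.998, so no array stood apart by its overall level. Lung epithelium was well represented on each array, with a summed level of the 9 measured alveolar type 2 markers between 17.05 and 17.29 on the log2 scale. Every comparison below is between smoke and air within one sex, and levels of one sex were not set against the other. A gene was called where limma's moderated test gave an adjusted p under 0.05 over all 45037 probe sets. A whole lung holds many cell types, and in such tissue a change in the number of cells of a type and a change in RNA per cell cannot be told apart.

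Oxidative phosphorylation takes place in the inner mitochondrial membrane. Complexes I and II pass electrons from NADH and succinate to coenzyme Q, complex III passes them on to cytochrome c, and complex IV hands them to oxygen. Complexes I, III and IV pump protons as they do so, and complex V, the ATP synthase, makes ATP from the returning protons. Most subunits are encoded in the nucleus, and those measured here are nuclear. In lung, alveolar type 2 cells, ciliated cells, macrophages and the heart muscle that sheathes the pulmonary veins are known to be rich in mitochondria, and several complex IV subunits come in a general form and a form typical of muscle or another tissue.

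Lungs of mice exposed to smoke in utero had higher levels of most members, by a small amount, in both sexes. The median log2 difference over the 92 members was 0.16 in females and 0.14 in males, while over all 18193 genes it was 0.00 in females and 0.01 in males. In females 80 of 92 members (87.0%) had a difference above 0, against 50.1% of all genes, and in males 78 of 92 (84.8%) against 52.4%. The members are abundant transcripts, and 73 of them had a mean of at least 10. Among all 3422 genes with such a mean the median difference was 0.02 in females and -0.01 in males, and 56% and 48.6% of them lay above 0.

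The lung-by-lung values give the spread behind these medians. Taking each array's difference from the mean of the air arrays of its sex, the median over the members was 0.03, -0.00, -0.07 and 0.04 on the 4 AF arrays and 0.17, 0.19, 0.19 and 0.08 on the 4 EF arrays. In males it was -0.04, 0.03, 0.01 and -0.01 on the AM arrays and 0.15, 0.14, 0.16 and 0.13 on the EM arrays. In these medians the groups did not overlap in either sex. EF replicate 4 lay nearest to the air arrays. Over all genes the medians of single arrays stayed between -0.03 and 0.02. Over genes with a mean of at least 10 they ran from -0.056 on AF replicate 3 to 0.057 on EF replicate 4. On AF replicate 1 that median was 0.055. EF replicate 4 had 0.079 over the members and 0.057 over genes with a mean of at least 10, and AF replicate 4 had 0.036 and -0.003. The member medians were read without taking off the median over genes of like level, so the separation in females holds for the member medians alone.

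**Figure D1:**
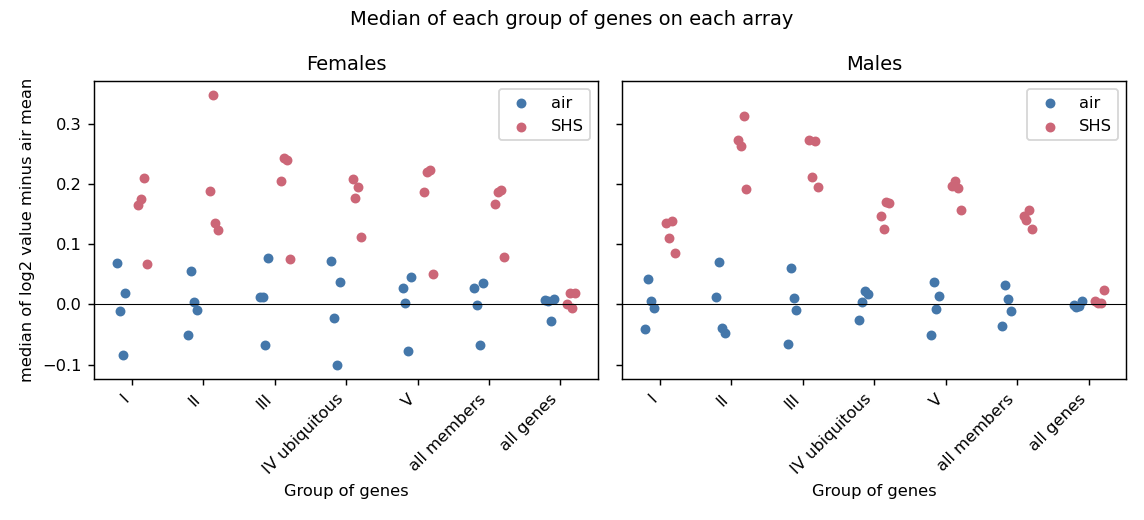
Median over a group of genes of the log2 difference of each array from the air mean of its own sex (y axis, log2), for complexes I, II, III and V, the general subunits of complex IV, all 92 members and all genes (x axis), 1 point per array, blue for air and red for smoke (SHS). Over all members, EF arrays sit between 0.08 and 0.19 and EM arrays between 0.13 and 0.16, above the air arrays of their sex, while the medians over all genes stay near 0.

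**Figure D2:**
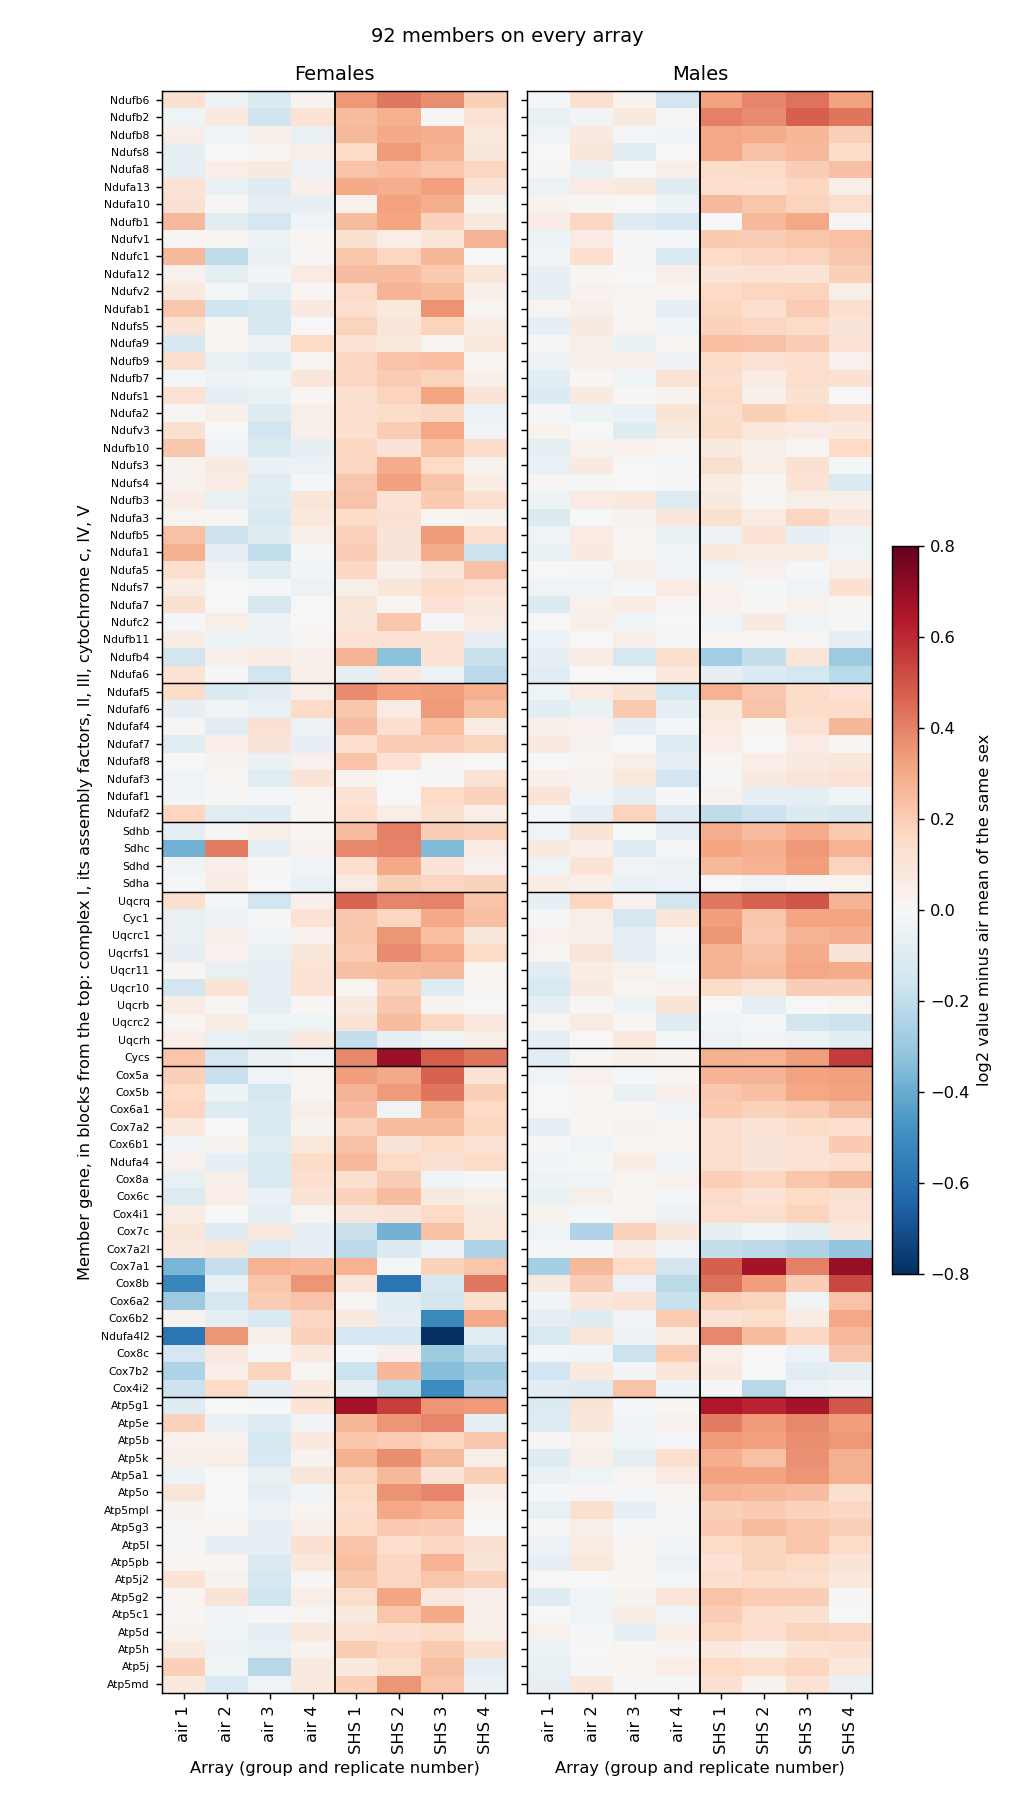
Log2 difference of each member (rows, ordered by complex) from the mean of the 4 air arrays of its own sex on each of the 16 arrays (columns), in colour, with colours saturating at 0.8 in either direction. Most rows are red on the smoke arrays of both sexes, and rows of the tissue isoforms of complex IV vary most from array to array within a group.

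By the test of single genes, 7 of 92 members (7.61%) were called higher in females and 0 lower, where 2.36% of all 45037 probe sets and 3.29% of all genes were called higher and 0.517% of probe sets lower. In males 20 of 92 (21.7%) were called higher and 1 lower, where 3.07% of all probe sets and 4.17% of all genes were called higher and 2.11% of probe sets lower. Among genes with a mean of at least 10, the shares called higher were 4.32% in females and 6.22% in males. At an unadjusted p under 0.05 there were 54 members in females and 41 in males, where 19.5% and 22.7% of all genes passed that mark. All 4 smoke arrays lay above all 4 air arrays for 30 members in females and 50 in males, and below for 0 in females and 2 in males (Cox7a2l and Ndufaf2). The same separation upward was found for 5.61% of all probe sets in females and 7.87% in males, and downward for 2.64% and 7.51%.

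The counts of calls moved with single arrays. In females 2 members were called without AF replicate 2, AF replicate 3, EF replicate 1, EF replicate 2 or EF replicate 3, each left out alone, and 25 without EF replicate 4. In males 8 were called without AM replicate 1 or AM replicate 3, 12 without AM replicate 4, 7 without EM replicate 1 or EM replicate 3, and 10 without EM replicate 2. The median differences moved little under the same omissions, from 0.13 to 0.18 in females and from 0.13 to 0.15 in males.

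**Figure D3:**
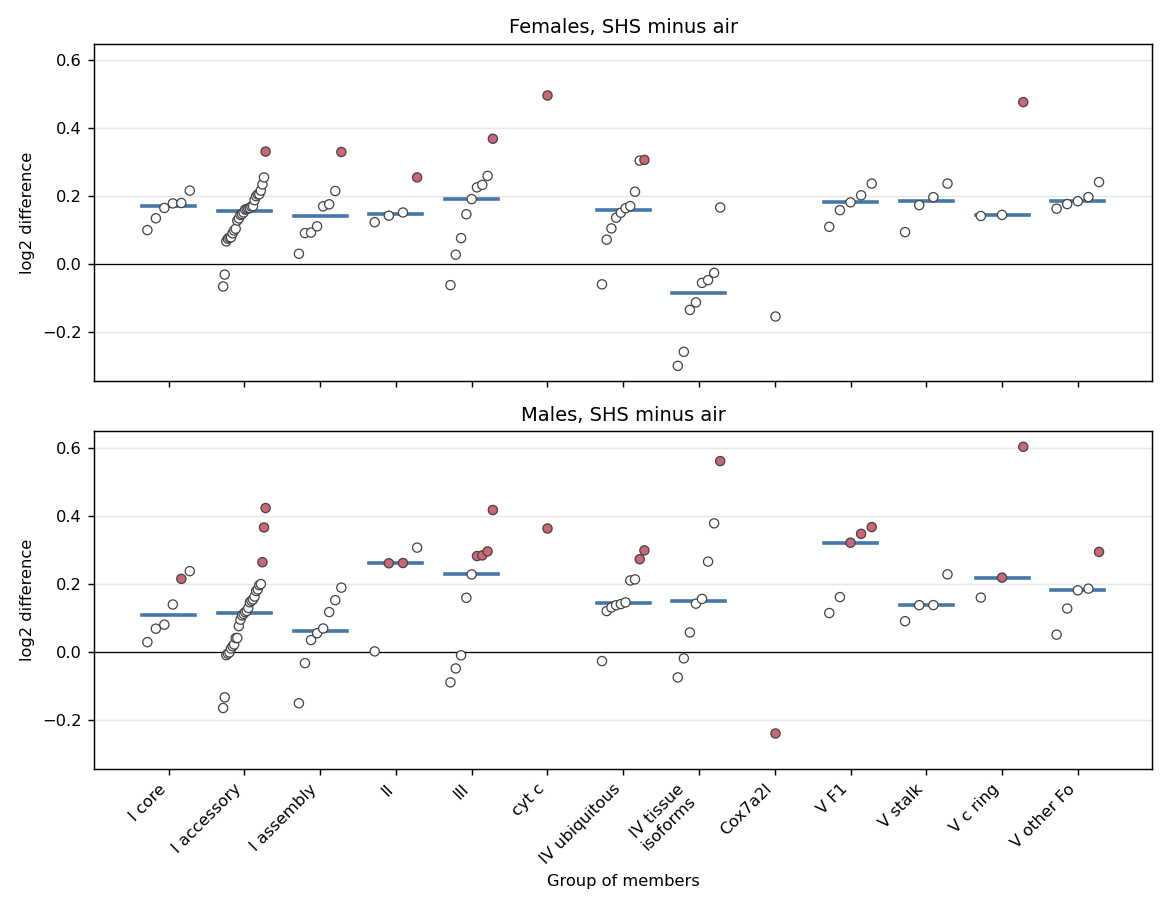
Log2 difference of each member, smoke minus air, in females and in males (y axis), grouped by complex and role (x axis), 1 point per gene; red filled points were called at an adjusted p under 0.05 and the blue bar is the median of the group. All 17 complex V genes lie above 0 in both sexes, and the lowest points belong to complex IV.

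6 members were called higher in females and in males alike: Cycs, Atp5g1, Uqcrq, Ndufb6, Cox5b and Sdhb, 1 from each complex and the carrier between complexes III and IV. They make up 85.7% of the 7 calls in females and 28.6% of the 21 calls in males. Over all 18193 genes, 353 (1.94%) were called higher in both sexes.

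Cycs, which encodes somatic cytochrome c, the carrier that also triggers apoptosis when released from mitochondria, had the largest difference of all members in females. The gene lies at chr6:50562563-50566569 in the assembly GRCm38.p6. Its values were 12.03, 11.66, 11.75 and 11.78 in AF and 12.19, 12.50, 12.29 and 12.24 in EF. In males they were 12.11, 12.23, 12.25 and 12.24 in AM and 12.49, 12.48, 12.54 and 12.77 in EM. No air value reached a smoke value of the same sex. The log2 difference was 0.50 ± 0.09 (SE, n = 4 per group; 1.41-fold, limma adjusted p 0.00561) in females and 0.36 ± 0.09 (1.29-fold, limma adjusted p 0.026) in males. A further pair of probe sets for Cycs was also called in both sexes, with differences of 0.43 and 0.34 in females and 0.40 and 0.34 in males, and a probe set with a mean of 4.96 was not. The call in males was lost without AM replicate 1 (adjusted p 0.0814), AM replicate 3 (0.0536), EM replicate 3 (0.0609) or EM replicate 4 (0.0699), while that in females held in each fit with 1 array left out.

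Atp5g1 encodes 1 of several identical mature c subunits that form the rotating ring of the ATP synthase, and it lies at chr11:96072793-96075694. The AF values were 10.61, 10.71, 10.70 and 10.82, and the EF values 11.37, 11.26, 11.06 and 11.05. The AM values were 10.35, 10.56, 10.44 and 10.47, and the EM values 11.10, 11.06, 11.12 and 10.95. Air and smoke were separated in both sexes. The difference was 0.48 ± 0.08 in females (1.39-fold, limma adjusted p 0.00302) and 0.60 ± 0.08 in males (1.52-fold, limma adjusted p 0.000504), the largest of all members in males, and both calls held with each array left out in turn. The only other probe set of the gene has a mean of 4.20 and gave -0.09 in females and 0.07 in males. The probe set that was called carries a suffix that marks probes matching more than one transcript of a gene.

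Uqcrq, a small subunit of complex III at chr11:53427922-53430831, had 11.15, 11.01, 10.87 and 11.06 in AF and 11.49, 11.41, 11.42 and 11.25 in EF. It had 10.91, 11.15, 11.02 and 10.83 in AM and 11.40, 11.45, 11.48 and 11.25 in EM. Smoke values lay above air values throughout each sex. The differences were 0.37 ± 0.08 (limma adjusted p 0.0226) and 0.42 ± 0.08 (limma adjusted p 0.00825). The probe set carries the suffix for probes that match transcripts of different genes. Its 3 other probe sets, with means of 5.94 to 6.27, gave -0.04 to 0.17 in females and -0.09 to 0.12 in males, none called. With the mean of all 4 probe sets the differences were 0.13 (adjusted p 0.113) and 0.14 (adjusted p 0.0822). With the brightest probe set free of a suffix they were 0.17 (0.348) and 0.12 (0.476), so both calls ended under either choice. The female call was also lost without AF replicate 2 (0.0643), AF replicate 3 (0.0886), EF replicate 1 (0.086), EF replicate 2 (0.0632) or EF replicate 3 (0.066).

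Ndufb6, an accessory subunit in the membrane arm of complex I at chr4:40270591-40279421, had 11.34, 11.18, 11.10 and 11.25 in AF and 11.56, 11.64, 11.59 and 11.40 in EF. It had 11.15, 11.30, 11.20 and 11.02 in AM and 11.49, 11.56, 11.60 and 11.49 in EM. The groups did not overlap. The differences were 0.33 ± 0.08 in females (limma adjusted p 0.0216) and 0.37 ± 0.08 in males (limma adjusted p 0.00914), and a second probe set gave 0.23 and 0.16, neither called. The female call was lost without AF replicate 2 (0.07), AF replicate 3 (0.0827), EF replicate 1 (0.0672), EF replicate 2 (0.0754) or EF replicate 3 (0.0664).

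Cox5b, a nuclear subunit of complex IV on the matrix side at chr1:36691487-36693388, had 12.82, 12.62, 12.52 and 12.68 in AF and 12.93, 13.003, 13.09 and 12.85 in EF. It had 12.84, 12.86, 12.79 and 12.88 in AM and 13.06, 13.09, 13.15 and 13.17 in EM. The smoke groups lay above the air groups by a narrow gap in females. The differences were 0.31 ± 0.07 (limma adjusted p 0.0259) and 0.27 ± 0.07 (limma adjusted p 0.0352). Of its 5 other probe sets, the 3 with means above 11 gave 0.21 to 0.29 in females and 0.19 to 0.26 in males, and 1 of them was called, in males. The call was lost in females without AF replicate 2 (0.0816), AF replicate 3 (0.0959), AF replicate 4 (0.0592), EF replicate 1 (0.0603), EF replicate 2 (0.0746) or EF replicate 3 (0.0936), and in males without any 1 of the 8 male arrays, with adjusted p from 0.0519 to 0.101.

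Sdhb, the iron-sulfur subunit of complex II at chr4:140961271-140979198, had 11.60, 11.69, 11.73 and 11.69 in AF and 11.92, 12.08, 11.87 and 11.86 in EF. It had 11.48, 11.62, 11.52 and 11.44 in AM and 11.80, 11.76, 11.81 and 11.73 in EM. Smoke and air values were apart in both sexes. The difference was 0.26 ± 0.07 in females (limma adjusted p 0.0426) and 0.26 ± 0.07 in males (limma adjusted p 0.028). The female call was the least secure of the 6: it was kept in 4 of 16 fits with 1 array left out (those without AM replicate 2, AM replicate 4, EF replicate 4 or EM replicate 4), with an adjusted p of up to 0.133 otherwise, and the male call was lost without AM replicate 1, 3 or 4 or EM replicate 1, 2 or 3 (adjusted p 0.0611 to 0.0868).

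**Figure D4:**
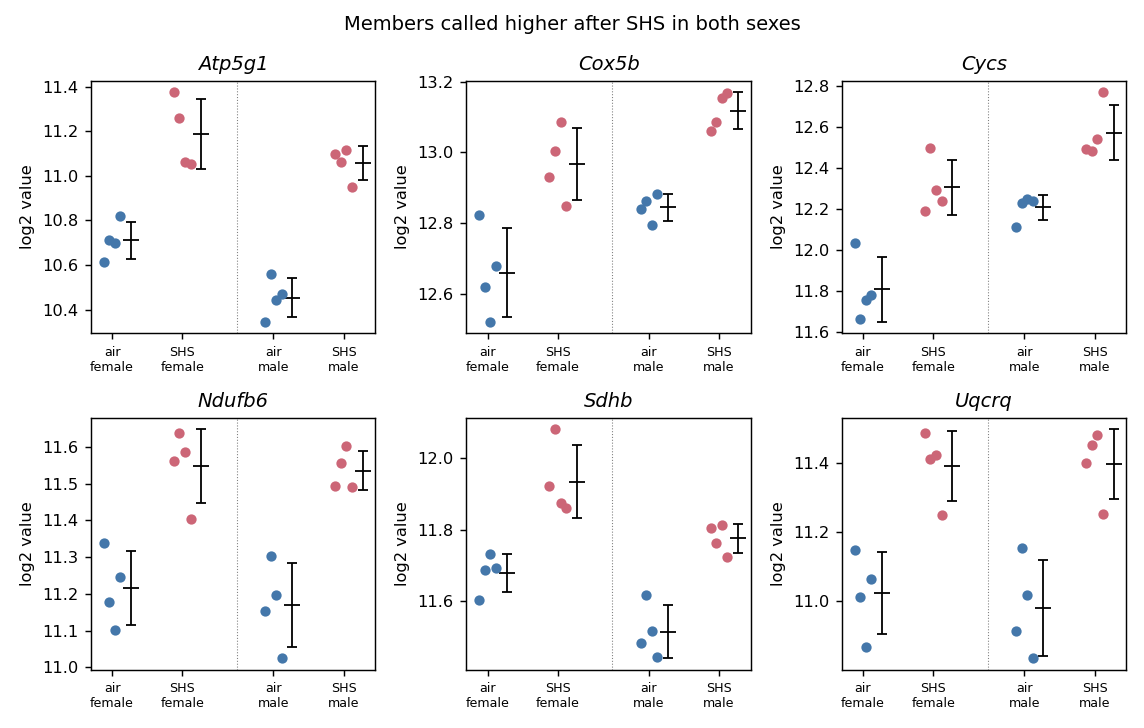
Log2 intensity (y axis) of the 6 members called higher in both sexes on each array, by group (x axis), 4 points per group, with the black mark at the mean and the bar at ± 1 SD. For each gene all 4 smoke points lie above all 4 air points of the same sex.

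The upstream sequences of 4 of these 6 genes are shown because they were called together in both sexes and each holds a match to a motif known from promoters of mitochondrial or growth genes. Promoters came from RefSeq (GRCm38.p6, the C57BL/6J reference rather than Balb/c): 75 of the 92 members were matched, with 80 promoter entries of 300 bases. Uqcrq was among the genes without an entry, and Cox5b had no match upstream of its start. The sequences give the 250 bases before the start, 5′ to 3′ on the strand of the gene, with the motif in capitals: GCATGCGC, a short form of the NRF1 site, in Cycs and Sdhb, the E-box CACGTG in Atp5g1, and CTTCCGG, the reverse of the ETS and GABP motif CCGGAAG, in Ndufb6.

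Cycs, chr6:50566570-50566819, minus strand: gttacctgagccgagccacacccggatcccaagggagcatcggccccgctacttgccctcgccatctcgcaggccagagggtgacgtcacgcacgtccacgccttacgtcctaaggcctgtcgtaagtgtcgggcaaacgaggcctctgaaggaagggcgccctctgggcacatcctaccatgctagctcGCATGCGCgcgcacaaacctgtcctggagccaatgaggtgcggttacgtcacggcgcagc

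Sdhb, chr4:140961021-140961270, plus strand: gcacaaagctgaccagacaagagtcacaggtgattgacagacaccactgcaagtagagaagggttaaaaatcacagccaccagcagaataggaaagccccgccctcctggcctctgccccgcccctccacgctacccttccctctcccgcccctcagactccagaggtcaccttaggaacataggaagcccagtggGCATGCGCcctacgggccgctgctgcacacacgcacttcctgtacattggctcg

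Atp5g1, chr11:96075632-96075881, minus strand: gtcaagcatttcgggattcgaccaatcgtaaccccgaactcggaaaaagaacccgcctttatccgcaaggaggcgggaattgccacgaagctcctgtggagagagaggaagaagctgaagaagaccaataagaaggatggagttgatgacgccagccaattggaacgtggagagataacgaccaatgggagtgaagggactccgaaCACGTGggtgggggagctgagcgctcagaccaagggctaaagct

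Ndufb6, chr4:40279422-40279671, minus strand: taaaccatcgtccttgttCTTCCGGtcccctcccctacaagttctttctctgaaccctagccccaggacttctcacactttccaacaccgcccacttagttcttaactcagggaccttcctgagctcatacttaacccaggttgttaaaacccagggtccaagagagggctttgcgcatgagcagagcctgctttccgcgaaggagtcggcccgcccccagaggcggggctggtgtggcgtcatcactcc

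The first base of the match lies 60 bases before the start in Cycs, 54 in Sdhb, 44 in Atp5g1 and 232 in Ndufb6. In Atp5g1 the start of the promoter entry lies inside the gene span given above. The end of its printed sequence, with the E-box, therefore lies within that span. For the others shown, the printed sequence ends where the span begins. Counted on both strands of the 300-base windows, the consensus NRF1 motif was found in 22.5% of the member promoters and in 4.60% of all 32851 promoters. The short form GCATGCGC, searched after the sequences had been seen and contained in some forms of the consensus, was in 15% and 2.71%. The ETS motif CCGGAAG was in 23.8% and 8.86%, the YY1 motif AAGATGGCG in 8.75% and 1.40%, the ERR motif AAGGTCA in 10% and 4.72%, and the E-box CACGTG in 8.75% and 7.15%. The 6 genes called in both sexes have 5 promoter entries, of which 0 held the consensus NRF1 motif, the YY1 motif or the ERR motif, 2 the short NRF1 form, 2 the ETS motif and 1 the E-box. These are counts of letters in windows, and binding was not measured.

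In complex I, which takes electrons from NADH, 34 subunits were measured. Their median difference was 0.16 in females and 0.11 in males, 32 and 29 of them lay above 0, and 1 and 4 were called higher. Those calls were 2.94% of the 34 in females and 11.8% in males, where 3.29% and 4.17% of all genes were called higher. In females the share thus did not exceed that of all genes. The 6 core subunits, among which are those that carry redox centres, had medians of 0.17 and 0.11, and the 28 accessory subunits 0.16 and 0.11. Of the core subunits, Ndufv1, which binds NADH and is named here after its values were seen, was called in males (0.21 ± 0.06, limma adjusted p 0.0467), with 11.32, 11.43, 11.35 and 11.35 in AM and 11.57, 11.55, 11.58 and 11.59 in EM. Its probe set carries the suffix for probes that may cross-hybridize. Another probe set gave 0.26 in males (limma adjusted p 0.0106), and that free of a suffix gave 0.18 (limma adjusted p 0.116). This call was not followed with arrays left out.

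Ndufb2, an accessory subunit of the membrane arm, had the largest difference of complex I in males. It measured 10.37, 10.41, 10.50 and 10.44 in AM and 10.84, 10.81, 10.91 and 10.86 in EM, without overlap. The difference was 0.42 ± 0.07 (1.34-fold, limma adjusted p 0.00338), and the call held with each array left out in turn. In females it was 0.17 ± 0.07 (limma adjusted p 0.282) and the groups overlapped. A second abundant probe set gave 0.20 in females and 0.23 in males, neither called, and another, with a mean of 7.26, gave -0.07 in both.

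Ndufb8, another membrane-arm subunit often used as an index of complex I assembly, had 11.29, 11.40, 11.31 and 11.30 in AM and 11.63, 11.62, 11.59 and 11.52 in EM (0.26 ± 0.06, limma adjusted p 0.0242). In females it was 0.24 ± 0.06 with an adjusted p of 0.0581, and smoke again lay above air. The male call was lost without AM replicate 1, 3 or 4 or EM replicate 1, 2 or 3 (adjusted p 0.0529 to 0.0758). Ndufa13, also known as GRIM-19, had 0.26 ± 0.07 in females (limma adjusted p 0.0633) and 0.12 ± 0.07 in males (limma adjusted p 0.37), and Ndufa6 was the only abundant member of the complex named here below 0 in both sexes, at -0.06 and -0.13, not called. Ndufb4 was represented by a probe set with a mean of 4.52, below the median of all values, 7.02, and its differences of -0.03 and -0.16 carry little information.

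8 genes that the symbol pattern takes in, Ndufaf1 to Ndufaf8, are no subunits but assembly factors, which build complex I and are not part of the finished enzyme. Their median difference was 0.14 in females, with all 8 above 0, and 0.06 in males, with 6 above 0. In females 1 of the 8 (12.5%) was called higher and in males 0, where 3.29% and 4.17% of all genes were. Ndufaf5, which hydroxylates an arginine of a core subunit, was the 1 call: it had 7.58, 7.32, 7.35 and 7.48 in AF and 7.81, 7.76, 7.76 and 7.71 in EF, without overlap, a difference of 0.33 ± 0.07 (1.26-fold, limma adjusted p 0.0193). In males it was 0.19 ± 0.07 (limma adjusted p 0.153), again without overlap. The female call was lost without AF replicate 2 (0.076), AF replicate 3 (0.0717), EF replicate 1 (0.0692), EF replicate 2 (0.0518) or EF replicate 3 (0.0532). Ndufaf6 had 0.22 in females and 0.15 in males, Ndufaf4 0.17 and 0.12, and Ndufaf7 0.18 and 0.03, none called. Ndufaf2, a late assembly factor, gave 0.09 in females and -0.15 in males, where all EM values (8.40, 8.44, 8.49 and 8.48) lay below all AM values (8.60, 8.54, 8.78 and 8.50) without a call (limma adjusted p 0.268).

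Complex II, succinate dehydrogenase, is shared with the tricarboxylic acid (TCA) cycle, and its 4 nuclear genes are all of its subunits. All 4 lay above 0 in both sexes, with medians of 0.15 in females and 0.26 in males. Beside Sdhb, the membrane anchor Sdhd was called in males: 10.85, 11.00, 10.86 and 10.84 in AM against 11.14, 11.17, 11.22 and 11.06 in EM (0.26 ± 0.07, limma adjusted p 0.033), a call lost without AM replicate 1, 3 or 4 or EM replicate 1, 2 or 3 (adjusted p 0.0728 to 0.108). In females Sdhd was 0.14 ± 0.07 (limma adjusted p 0.311). The other anchor, Sdhc, was spread widely in females, with 10.40, 11.20, 10.72 and 10.82 in AF and 11.17, 11.18, 10.44 and 10.85 in EF, so that its 0.12 ± 0.15 says little. In males its groups were apart, 9.83, 9.79, 9.65 and 9.74 against 10.07, 10.05, 10.10 and 10.03, yet the pooled error left 0.31 ± 0.15 uncalled (limma adjusted p 0.267). The flavoprotein Sdha, which oxidises succinate, was 0.15 ± 0.06 in females (limma adjusted p 0.186) and 0.00 ± 0.06 in males (limma adjusted p 0.994).

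Complex III passes electrons from coenzyme Q to cytochrome c. Its 9 measured subunits had medians of 0.19 in females and 0.23 in males, with 8 and 6 above 0, and 1 and 4 called higher. The calls were 11.1% and 44.4% of the 9, beside 3.29% and 4.17% of all genes. Cyc1, the haem subunit that meets cytochrome c, was called in males: 11.14, 11.20, 11.02 and 11.25 in AM and 11.49, 11.37, 11.47 and 11.47 in EM, without overlap (0.30 ± 0.07, limma adjusted p 0.0155). In females it had 11.36, 11.37, 11.41 and 11.53 against 11.63, 11.59, 11.72 and 11.66, also without overlap (0.23 ± 0.07, limma adjusted p 0.0689). Uqcrfs1, the Rieske iron-sulfur protein, gave 0.26 ± 0.07 and 0.23 ± 0.07 with adjusted p of 0.0575 and 0.073 in limma, so both missed the threshold.

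Values of the core proteins of complex III were less alike. Uqcrc1 was called in males, with 10.47, 10.48, 10.37 and 10.43 in AM and 10.79, 10.65, 10.71 and 10.73 in EM (0.28 ± 0.07, limma adjusted p 0.0183), and was 0.23 ± 0.07 in females (limma adjusted p 0.0726). Uqcrc2 was 0.15 ± 0.06 in females (limma adjusted p 0.267) and -0.09 ± 0.06 in males (limma adjusted p 0.48), and the difference of these effects, 0.24, was not called (limma adjusted p 0.542). Among the small subunits, Uqcr11 was called in males (0.28 ± 0.07, limma adjusted p 0.0217; 11.31, 11.45, 11.43 and 11.38 against 11.67, 11.64, 11.71 and 11.69) and Uqcrh, the hinge protein, was at -0.06 in females and -0.05 in males. The male calls were lost for Cyc1 without AM replicate 3, EM replicate 1 or EM replicate 3 (adjusted p 0.0516 to 0.0598), for Uqcrc1 without the same arrays (0.0509 to 0.0662) and for Uqcr11 without AM replicate 1, EM replicate 1 or EM replicate 3 (0.055 to 0.0733).

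Complex IV, cytochrome c oxidase, had 19 measured genes with medians of 0.07 in females and 0.14 in males. The 10 general subunits, Ndufa4 included, which is now known to belong to complex IV, had medians of 0.16 and 0.14, with 9 above 0 in each sex. Beside Cox5b, Cox5a, its partner in the matrix, was called in males, where the arrays of each group lay close together: 12.45, 12.51, 12.46 and 12.50 in AM and 12.75, 12.76, 12.80 and 12.81 in EM (0.30 ± 0.08, limma adjusted p 0.0411). In females Cox5a had the same size of difference, 0.31 ± 0.08, with an adjusted p of 0.0514, and AF replicate 1 at 12.28 overlapped the EF values of 12.43, 12.40, 12.57 and 12.20. The male call of Cox5a was lost in 11 of 16 fits with 1 array left out, all but those without AF replicate 1, AF replicate 2, EF replicate 2, EF replicate 3 or EF replicate 4, with adjusted p of 0.0505 to 0.106.

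The rest of the general subunits named were not called by their representing probe sets. Cox4i1, the general form of a subunit through which ATP slows the enzyme, was at 0.11 in females and 0.15 in males. Cox6a1 gave 0.17 and 0.21, Cox6b1 0.15 and 0.14, Cox7a2 0.21 and 0.13, Cox8a 0.07 and 0.21, and Ndufa4 0.17 and 0.12. A second abundant probe set was called in males for Cox6a1 (0.33, limma adjusted p 0.0034) and Cox8a (0.27, limma adjusted p 0.0422). In females these gave 0.14 and 0.11, uncalled. Second abundant probe sets of Cox6b1 and Cox7a2 were not called in either sex. All 4 smoke arrays lay above all 4 air arrays for 4 of the 10 general subunits in females and for 9 of 10 in males. The same held for 5.61% of all probe sets in females and 7.87% in males.

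Cox7a2l, a relative of Cox7a2 that links complexes III and IV into supercomplexes, was the only member called lower. It had 11.88, 11.88, 11.95 and 11.87 in AM and 11.70, 11.69, 11.66 and 11.59 in EM, without overlap, a difference of -0.24 ± 0.07 (limma adjusted p 0.0473). In females it was -0.15 ± 0.07 (limma adjusted p 0.267), with overlap. Its 3 probe sets all lay below 0 in both sexes, from -0.15 to -0.12 in females and from -0.26 to -0.16 in males, and 2 of them were called in males. Balb/c mice are known to carry a shortened form of the protein, in the controls as in the smoke groups. The call of the representing probe set was lost in 11 of 16 fits with 1 array left out, those without any 1 of the 8 male arrays, AF replicate 2, AF replicate 4 or EF replicate 1, with adjusted p of 0.053 to 0.126.

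Of the 8 tissue isoforms of complex IV, 1 lay above 0 in females, with a median of -0.08 and no call, while in males 6 lay above 0 with a median of 0.15 and 1 was called. That is 12.5% of the 8 in males, beside 4.17% of all genes called higher. Cox7a1, the form of heart and skeletal muscle, had 7.56, 8.08, 7.98 and 7.68 in AM and 8.31, 8.49, 8.23 and 8.52 in EM. The male groups did not overlap, and the difference was 0.56 ± 0.14 (1.48-fold, limma adjusted p 0.0273). In females it had 7.35, 7.53, 7.99 and 7.98 in AF and 7.99, 7.71, 7.90 and 7.94 in EF (0.17 ± 0.14, limma adjusted p 0.624). The call was lost without AM replicate 1 (0.0934), AM replicate 4 (0.0685), EM replicate 1 (0.0534), EM replicate 2 (0.0773) or EM replicate 4 (0.0639).

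Cox8b, another muscle form, ranged from 7.38 to 8.26 in AF, 7.32 to 8.33 in EF, 7.50 to 7.91 in AM and 7.91 to 8.25 in EM. The difference was -0.05 ± 0.19 in females and 0.38 ± 0.19 in males (limma adjusted p 0.27). Cox6a2, the muscle form of Cox6a1, gave -0.02 and 0.14. These muscle forms varied with the heart muscle markers of each lung piece. Over the 8 arrays of a sex, air and smoke together, their values were set against the summed level of 12 markers of the heart muscle of pulmonary veins. Cox8b gave Pearson's r of 0.97 in females and 0.87 in males and Spearman's rho of 0.90 and 0.86, Cox6a2 r of 0.85 and 0.93 and rho of 0.83 and 0.88, and Cox7a1 r of 0.80 and 0.84 and rho of 0.81 in each sex.

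Of the 12 relations computed, those 6 had exact two-sided permutation p from 0.000744 to 0.021 for r and 0.00456 to 0.0218 for rho, adjusted to between 0.00893 and 0.042 for r and between 0.0429 and 0.0436 for rho. The permutations ran over all arrays of a sex regardless of group. A difference between air and smoke shared by marker sum and gene thus counts toward r. Relations within groups were not computed. Without the 2 arrays farthest from the median of the marker sum, r was 0.85 and 0.75 for Cox8b, 0.98 and 0.78 for Cox6a2, and 0.74 and 0.64 for Cox7a1, females first. The general forms Cox6a1, Cox7a2 and Cox8a gave r of -0.01, -0.42 and -0.23 in females and 0.71, 0.59 and 0.52 in males, with adjusted exact permutation p of 0.0728 to 0.973. The marker sum itself ran from 12.56 to 13.51 in AF and 12.48 to 13.33 in EF, and from 12.66 to 13.48 in AM and 13.25 to 13.68 in EM. In females 4 of the 12 heart markers lay above 0 with a median of -0.06, and Myh7 was called lower (-0.62, limma adjusted p 0.00245). In males 11 of the 12 lay above 0 with a median of 0.65; Myl3 was called higher (0.51, limma adjusted p 0.0466) and Myh7 lower (-0.94, limma adjusted p 9.99e-05), and 2 of the 12 had means below the median of all values. The part of heart muscle in the Cox7a1 difference was not tested.

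**Figure D5:**
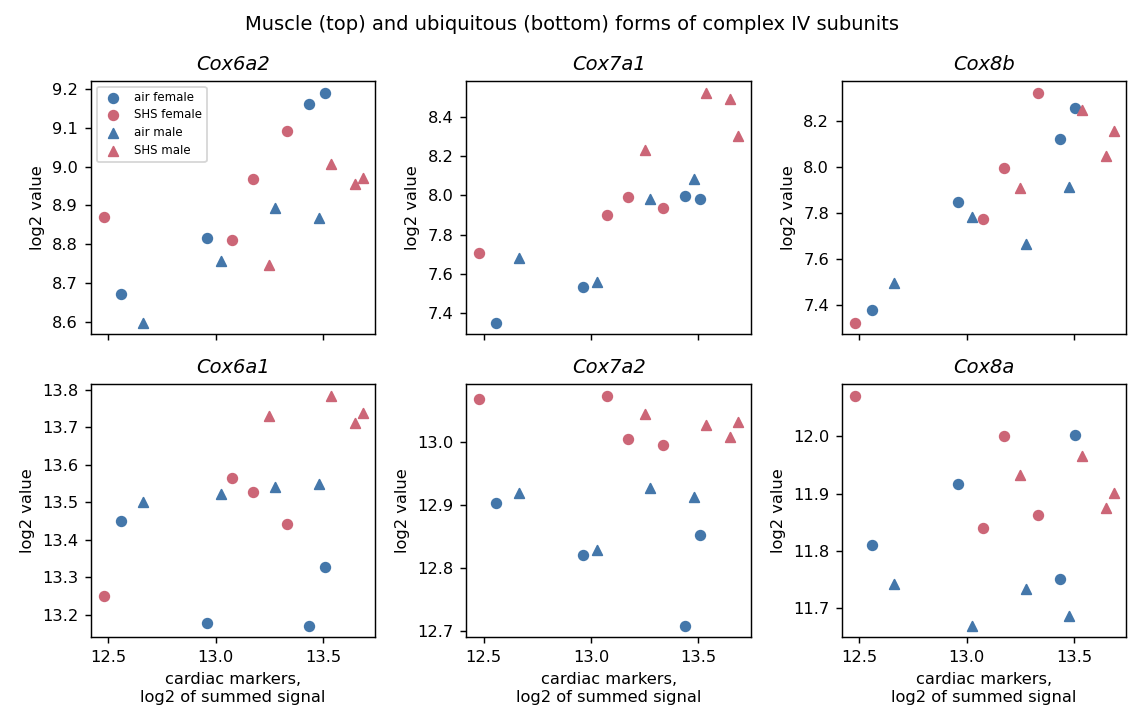
Log2 intensity of 3 muscle forms of complex IV subunits and their general forms (y axes) against the log2 summed level of 12 heart muscle markers (x axis), 1 point per array, blue for air and red for smoke, with circles for females and triangles for males. Points of the muscle forms climb with the marker sum in each sex, and those of the general forms in females do not.

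The remaining tissue isoforms were not called in either sex. Ndufa4l2, a relative of Ndufa4 that hypoxia induces, had 8.82, 9.76, 9.45 and 9.59 in AF and 9.27, 9.26, 8.57 and 9.32 in EF (-0.30 ± 0.17, limma adjusted p 0.423). In males it had 7.50, 7.72, 7.59 and 7.68 in AM and 8.01, 7.88, 7.79 and 7.89 in EM, without overlap (0.27 ± 0.17, limma adjusted p 0.416). Cox4i2, the form of subunit 4 typical of lung and of low oxygen, gave -0.26 ± 0.10 in females (limma adjusted p 0.2) and -0.07 ± 0.10 in males (limma adjusted p 0.74). The testis forms Cox6b2, Cox7b2 and Cox8c had differences from -0.13 to -0.05 in females and from -0.02 to 0.16 in males, and Cox7b2, with group means from 3.76 to 3.97, lay near the low end of the scale.

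Complex V, the ATP synthase, had all 17 measured genes above 0 in both sexes, with medians of 0.18 in each. The differences ran from 0.09 to 0.48 in females and from 0.05 to 0.60 in males. 1 was called in females (5.88%), Atp5g1, and 6 in males (35.3%), where 3.29% and 4.17% of all genes were called higher. Smoke lay above air without overlap for 9 of 17 in females and 14 of 17 in males, beside 5.61% and 7.87% of all probe sets. The 5 genes of the catalytic F1 head had a median of 0.18 in females and 0.32 in males, the 4 of the peripheral stalk 0.19 and 0.14, and the 5 other Fo genes 0.19 and 0.18.

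Atp5b, the catalytic beta subunit, had 12.42, 12.45, 12.38 and 12.40 in AM and 12.75, 12.74, 12.78 and 12.76 in EM, gaps far wider than the spread within groups (0.35 ± 0.06, 1.27-fold, limma adjusted p 0.00265). In females it had 13.09, 13.08, 12.91 and 13.13 in AF and 13.27, 13.25, 13.22 and 13.27 in EF (0.20 ± 0.06, limma adjusted p 0.0751), also without overlap. Atp5a1, the alpha subunit, had 12.24, 12.25, 12.31 and 12.35 in AM and 12.61, 12.61, 12.64 and 12.57 in EM (0.32 ± 0.06, 1.25-fold, limma adjusted p 0.00505), and 0.18 ± 0.06 in females (limma adjusted p 0.123). Both male calls held with each array left out in turn. Atp5e, the epsilon subunit at the foot of the head, had 11.44, 11.64, 11.52 and 11.58 in AM and 11.96, 11.88, 11.93 and 11.88 in EM (0.37 ± 0.09, limma adjusted p 0.026), and 0.24 ± 0.09 in females (limma adjusted p 0.189), where EF replicate 4 at 11.52 lay among the air values.

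The c ring is encoded by 3 genes whose mature proteins are alike. Their transcripts were compared only as differences between smoke and air. Atp5g1 had the largest of them, and Atp5g2 gave 0.15 ± 0.08 in females and 0.16 ± 0.08 in males, neither called. Atp5g3 was called in males, with 13.23, 13.29, 13.22 and 13.23 in AM and 13.45, 13.49, 13.46 and 13.43 in EM (0.22 ± 0.06, limma adjusted p 0.044), and gave 0.14 ± 0.06 in females (limma adjusted p 0.245). Atp5k, subunit e, which takes part in pairing of synthases, was called in males (0.29 ± 0.08, limma adjusted p 0.0333; 11.76, 11.90, 11.79 and 11.99 against 12.15, 12.10, 12.23 and 12.14) and gave 0.24 ± 0.08 in females (limma adjusted p 0.103). Atp5o, which joins the stalk to the head, gave 0.24 and 0.23, uncalled. Its second probe set, with a mean of 10.24, was called in females (0.37, limma adjusted p 0.017). In males that probe set gave 0.08 (limma adjusted p 0.636). Calls in males were lost for Atp5e without AM replicate 1 or 3 or EM replicate 1, 2 or 3 (adjusted p 0.0544 to 0.0824) and for Atp5k without AM replicate 1 or 3 or any EM array (0.0544 to 0.107). That of Atp5g3 was kept in 5 of 16 fits, those without AF replicate 1, AF replicate 3, EF replicate 2, EF replicate 3 or EF replicate 4, with adjusted p of up to 0.11 in the rest.

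The effect of smoke was not shown to differ between the sexes for any member. None of the 92 was called in the test of the difference of the effects, nor was any of the 45037 probe sets (0%), and the lowest limma adjusted p over the members was 0.542. At an unadjusted p under 0.05 there were 4 of the 92 members, Ndufa4l2 (-0.56, females minus males), Ndufb2 (-0.26), Uqcrc2 (0.24) and Ndufaf2 (0.24), and 3709 of the 45037 probe sets. Members thus passed that mark less often than probe sets at large. 73 members lay above 0 in both sexes and 7 below in both. Across members, whose values come from the same arrays and are not independent, the differences in females and males had r = 0.54 and rho = 0.53 (n = 92), and r = 0.73 without the 8 tissue isoforms (n = 84). The comparisons in females and in males share no arrays but share 1 estimate of the spread.

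Probe sets that did not represent a gene gave a second reading. 52 of the 92 genes had several probe sets, and 68 of the 92 other probe sets had a mean above the median of all values. Of those 68, 60 lay above 0 in females and 56 in males. 6 were called higher in females and 15 in males, and 0 and 1 lower. Of the representing probe sets, 49 carry a suffix for probes that match several transcripts, 12 of them the suffix for transcripts of different genes and 7 that for probes that may cross-hybridize. Nuclear subunits have processed pseudogenes, from which such probe sets may not tell them apart. Some calls rested on the choice of probe set. With the mean of all probe sets of a gene, calls were lost for Uqcrq and Cox5b in both sexes, for Atp5g1 in females (0.19, adjusted p 0.108) and for Atp5a1 (0.19, 0.0547), Ndufb8 (0.09, 0.312) and Sdhd (0.13, 0.154) in males. Represented by probe sets free of a suffix, Uqcrq, Cox5b and Atp5g1 lost both calls, and Ndufb2, Ndufb8, Cox5a and Atp5k lost that in males, with adjusted p from 0.0852 for Atp5k to 0.993 for Cox5b in females. Ndufv1 was not among the members followed here, and its probe set free of a suffix was not called in males (0.18, limma adjusted p 0.116).

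Other parts of the mitochondrion were read from lists of related genes, beside which stand the shares of all genes called higher, 3.29% in females and 4.17% in males. Of 13 TCA cycle enzymes, 3 were called higher in females and 4 in males and none lower, with medians of 0.17 and 0.11. Citrate synthase, Cs, was called in both sexes (0.28 ± 0.06 in each, limma adjusted p 0.0174 and 0.0131), as was malate dehydrogenase, Mdh2 (0.33 ± 0.07 and 0.29 ± 0.07, limma adjusted p 0.018 and 0.0277). Fumarase, Fh1, was called in females (0.26), and Idh3a (0.32) and Ogdh (0.26), which make NADH in the cycle, in males. Of 19 genes of mitochondrial import and cristae, 3 were called higher in females and 2 in males, with medians of 0.19 and 0.15: the channel Tomm40 in both (0.39 in each), Timm23 (0.32) and Timm8a1 (0.30) in females, and the chaperonin Hspd1 (0.35) in males.

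Genes that feed electrons or exchange nucleotides, those that assemble the other complexes and regulators of mitochondrial biogenesis were read in the same way. Of 11 genes for the ATP synthase inhibitor and nucleotide carriers, only Ckmt1, the mitochondrial creatine kinase, was called, in both sexes (0.70 and 0.61). Of 15 genes for coenzyme Q and electron transfer flavoproteins, Etfa (0.23) and Gpd2 (0.26) were called higher in females and Etfb (0.33) in males. Of 10 genes of pyruvate dehydrogenase and its control, the kinase Pdk3 was called higher in females (0.26) and the phosphatase Pdp1 lower in males (-0.46). No gene was called among 19 assembly factors of complexes III and IV, with medians of 0.11 and 0.08, or among 6 of complexes II and V, with medians of 0.09 and 0.01. Of 15 regulators of mitochondrial biogenesis, Myc was called higher in females (0.67 ± 0.12, limma adjusted p 0.0045) and Pprc1 in males (0.33 ± 0.08, limma adjusted p 0.0298). The only mitochondrially encoded gene matched, ND5, gave 0.06 in females and -0.05 in males.

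Marker lists of 19 cell types were read beside the members. Of 11 measured markers of proliferating cells, 10 were called higher in each sex, with medians of 1.12 and 0.99, and their summed log2 level ran from 12.70 to 12.85 in AF, 13.13 to 13.65 in EF, 12.59 to 12.82 in AM and 13.15 to 13.54 in EM, with 2 of the 11 below the median of all values. Of 9 alveolar macrophage markers, 8 lay above 0 in females and 7 in males and 1 was called in each sex (Mrc1), and the sum ran from 14.81 to 15.07 in AF, 15.18 to 15.29 in EF, 14.98 to 15.08 in AM and 15.13 to 15.24 in EM, with 1 of 9 (Marco) below that median. Neutrophil markers lay above 0 for 8 of 9 in each sex, with medians of 0.25 and 0.32 and 1 called higher, in males (Cxcr2), and the sum ran from 11.85 to 12.46 in AF, 11.90 to 12.97 in EF, 12.00 to 12.34 in AM and 12.39 to 12.64 in EM. Of these 9 markers, 3 had means below the median of all values.

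The lists of club cells, ciliated cells, alveolar type 2 cells and fibroblasts had medians below 0 in both sexes. Those of alveolar type 1 cells (-0.06 and -0.09) and erythroid cells (-0.15 and -0.06) did as well. Of 9 club cell markers, 1 was called lower in each sex (Scgb3a2), and the sum ran from 16.76 to 17.06 in AF, 16.50 to 16.82 in EF, 16.69 to 16.78 in AM and 16.47 to 16.72 in EM, with 1 of the 9 below the median of all values. Of 12 ciliated cell markers, 1 lay above 0 in females and 6 in males, with medians of -0.19 and -0.02 and no call, and the sum ran from 13.02 to 13.26 in AF, 12.67 to 13.09 in EF, 12.77 to 13.01 in AM and 12.73 to 12.99 in EM, with 2 of the 12 below the median of all values. Of 9 alveolar type 2 markers, 3 lay above 0 in each sex, with medians of -0.13 and -0.18, and Abca3 and Etv5 were called lower in males, while the sum ran from 17.08 to 17.29 in AF, 17.13 to 17.24 in EF, 17.13 to 17.15 in AM and 17.05 to 17.14 in EM. Of 10 fibroblast markers, 3 lay above 0 in each sex, with medians of -0.26 and -0.04 and Tcf21 called lower in females, and the sum ran from 15.16 to 15.45 in AF, 14.95 to 15.29 in EF, 15.33 to 15.36 in AM and 15.22 to 15.37 in EM. Apart from heart muscle, the 11 other lists had medians from -0.15 (erythroid cells) to 0.34 (B and plasma cells) in females and from -0.09 (alveolar type 1 cells) to 0.16 (monocytes and interstitial macrophages) in males. The part of these cell types in the differences of the members was not tested.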

How the data were processed

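Total RNA of 16 left lungs was labelled with biotin and hybridized to 1 array each, per the labels' protocols. The authors deposited 1 log2 value per probe set and array, already on a common scale between arrays; how probes were summarised and normalized, and the genome build, are not given in the sources used here. Limma is listed, with neither version nor role, in the submitters' processing notes. That the scale is log2 was read from the values, which ran from 2.58 to 15.2. Arrays give no count depth, and the number of arrays limits the precision. No filter on low values was applied.

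Probe sets were named through GEO's platform annotation, and positions came from RefSeq genes of GRCm38.p6. After 64 control probe sets were left out, group means of all 4 groups were fitted with limma 3.58.1 in R 4.3.3 to 45037 probe sets, with 12 residual and 5.56 prior degrees of freedom. The contrasts were EF minus AF, EM minus AM and the difference of these effects. Tests were two-sided, with p adjusted by Benjamini-Hochberg within a contrast, and ± is a standard error. Relations with heart muscle markers were tested with exact permutation (SciPy 1.17.1), adjusted over 12 relations, and promoters were searched and figures drawn with pandas 2.3.3 and matplotlib 3.10.9 in Python 3.11.15. Simulated data with known changes served to check the fit.

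Members, lists and tests were chosen with earlier results of these data known, so no list was tested as a set. The members named are those called, up to 15 per direction and sex; in each complex, the 3 largest positive and the largest negative differences per sex; genes with tissue isoforms, complex II and assembly factors. From each pathway list up to 4 called genes per sex are named. Replicate numbers were not taken as pairs: the correlation of deviations exceeded 0.1 in 2 of 8 same-numbered pairs. Alternatives were quantile normalization, median centring, a filter at the 40th percentile, the replicate number as a block, 8 arrays alone, a trended robust prior, array weights, a threshold of 0.10 on adjusted p, other ways to represent a gene, and each array left out.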

Additional observations from a re-analysis of the deposited data

Results flagged for a closer look

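Within groups of 4 arrays, the highest or lowest value stood apart from the other 3 in 15 of 208 groups tested, which cover the 51 named members and the median over all members in the 4 groups. Chance alone flags about 1 in 20 such groups. None of the medians over all members was flagged.

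6 of the 15 were low values in a smoke group, nearer to air than the rest of that group, on 4 arrays: Ndufa13 at 12.21 on EF replicate 4 (others 12.40 to 12.44), Uqcr11 at 11.23 on EF replicate 4 (others 11.44 to 11.46), Atp5g2 at 11.14 on EM replicate 4 (others 11.32 to 11.36), Atp5o at 11.93 on EM replicate 4 (others 12.05 to 12.07), Cyc1 at 11.37 on EM replicate 2 (others 11.47 to 11.49) and Sdha at 11.55 on EF replicate 1 (others 11.66 to 11.68). Ndufa4l2 was low at 8.57 on EF replicate 3 (others 9.26 to 9.32), away from air.

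Among air arrays, Atp5g3 stood high at 13.29 on AM replicate 2 (others 13.22 to 13.23), as did Sdhd at 11.00 on the same array (others 10.84 to 10.86). Cycs was low at 12.11 on AM replicate 1 (others 12.23 to 12.25), and Cox7a2 at 12.83 on that array (others 12.91 to 12.93). Ndufaf6 was high at 7.84 on AF replicate 4 (others 7.62 to 7.66) and at 8.20 on AM replicate 3 (others 7.90 to 7.94). Atp5k was low at 11.93 on AF replicate 3 (others 12.08 to 12.10), and Ndufb4 at 4.38 on AF replicate 1 (others 4.57 to 4.59).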

How the results depend on the processing

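The members called in females, 7 in the fit reported, numbered 19 with probe sets below the 40th percentile left out, 2 with only the 8 female arrays, 27 with array weights, 23 with a trended robust prior, 18 at an adjusted p under 0.10, 17 with the mean of all probe sets of a gene, 24 without both smoke arrays numbered 4 (chosen after seeing the data) and 2 to 25 with 1 array left out. In males the 21 calls became 12 of 74 members with probe sets free of a cross-hybridization suffix and 7 to 23 with 1 array left out. The other alternatives gave counts within 1.5 times of those reported, and none gave a member called in the difference of the effects. With the replicate number as a block, 8 members were called in females and 16 in males. 4 of 8 air lungs correlated best with the smoke lung of their own number, and r exceeded 0.1 in 2 of 8 same-numbered pairs. The numbers were not taken as pairs. The females' median was 0.11 after quantile normalization and 0.13 to 0.18 with 1 array left out, the males' median 0.13 to 0.15. After quantile normalization 861 of 1220 calls in females over all probe sets were higher (70.6%), against 1061 of 1294 (82.0%), while the members called were all higher in both. Quantile normalization and centring moved the median of all genes by less than 0.1.

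Of the calls listed for named members, 1 was lost after quantile normalization (Sdhb in females, adjusted p 0.136), 2 after centring (Sdhb in females, 0.0551, and Atp5g3 in males, 0.0516), 5 with 8 arrays (Sdhb, Uqcrq, Ndufaf5, Cox5b and Ndufb6 in females, 0.0685 to 0.154), 8 with the mean of probe sets, 10 without suffix and 4 without both smoke arrays numbered 4 (Cox5b, Cox7a1, Cox7a2l and Cycs in males, 0.0508 to 0.0783). With the block, 4 calls in males were lost, that of Cox7a2l (0.0513), the 1 call downward, and those of Cox5a (0.0517), Cox5b (0.0542) and Atp5g3 (0.0542). Over all named members and alternatives, 2448 values kept direction and side of the threshold, 152 kept direction but lost a call, 93 kept direction and gained one, and 35 reversed, of which 3 also lost a call, and the cause was not tested. With probe sets free of a suffix, which replaced an abundant probe set by a dimmer one, Atp5g1 in females gave -0.091, Ndufaf8 in females -0.022, Ndufb2 -0.071 in females and -0.073 in males, and Ndufb8 in males -0.081. With the mean of all probe sets, Cox6a2 gave 0.051 and Uqcrh 0.010 in females, and Uqcrc2 0.016 and Sdha -0.0026 in males. Sdha in males was also -0.0029 after centring, -0.0084 with array weights and -0.0058 without both smoke arrays numbered 4. Ndufaf3 in females was -0.0071 after quantile normalization, and Ndufb4 in females 0.092 with weights and 0.020 without both arrays numbered 4. With 1 array left out, the values of those members that reversed ran in females from -0.13 to 0.069 for Ndufb4, -0.12 to 0.052 for Cox6a2, -0.22 to 0.13 for Cox8b, -0.18 to 0.10 for Cox6b2 and -0.0035 to 0.28 for Sdhc. In males they ran from -0.016 to 0.021 for Sdha, -0.070 to 0.014 for Cox7b2, -0.055 to 0.0013 for Ndufaf1 and -0.11 to 0.00071 for Cox4i2. None of the reversed values was called.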
